A study of Mus musculus with 66 samples.

Results

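The mid-colon of mice on day 3 of exposure to dextran sulfate sodium (DSS) was compared with that of uninjured mice, across all genes. The comparison holds 7 of the 66 samples of the series, chosen by the section and the day that the labels give. All mice were wild-type C57Bl/6, bought at 6 weeks of age. The 4 uninjured mice (day 0, mice 1 to 4) had received no DSS. The 3 treated mice (mice 5 to 7) were killed on day 3 of a 6-day course of 3% DSS that began on day 0, so they had not finished it. Age at death and sex are not given in the sources used here. Each sample was mucosa of a mid-colonic section whose muscle layer had been taken off, and each mouse gave 1 such sample. The rectum of the same 7 mice and the mid-colon of 3 other mice killed on day 6 are used where a result needs them.

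The colonic epithelium renews itself from stem cells at the crypt base. Their daughters divide, move up the crypt and become absorptive colonocytes, mucus-secreting goblet cells, hormone-secreting enteroendocrine cells or chemosensory tuft cells. DSS is a sulfated polysaccharide that damages this epithelium when ingested, and the damage lets bacteria reach the mucosa and draws in leukocytes. A bulk sample mixes all cells of the mucosa, so fewer cells of a type and less RNA per cell cannot be told apart in any result below.

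Levels are in TPM, the abundance of a transcript adjusted for its length and scaled to the same total in every library. The table holds no read counts, so the depth is unknown. Between 11268 and 11865 genes reached 1 TPM in the day 0 libraries and between 11387 and 12090 at day 3. Mouse 4 had the fewest such genes at day 0, and its 10 most abundant genes took 31.1% of the total, against 24.6% to 25.5% in mice 1 to 3. Mouse 5 had the fewest at day 3. Mitochondrial genes took 16.4% to 20.8% of the total at day 0 and 15.8% to 22.8% at day 3. Epithelial markers were high, as the tissue label has it: Epcam stood between 1003 and 1327 TPM and the goblet cell gene Clca1 between 3809 and 4873 TPM in the 7 libraries. Most markers of neutrophils were at or near 0. S100a8 reached 0.780 TPM at most at day 0 and was listed at 0 in all 3 mice of day 3. The highest value of S100a9 in any of the 7 was 1.43 TPM, and Csf3r and Cxcr2 stayed under 0.3 TPM. Of the 18 neutrophil genes listed, 2 were high enough to be tested, and neither passed. Ly6g was at 532 to 954 TPM in uninjured and 371 to 441 TPM in treated mice (adjusted p 0.121), and Cd177 was at 6.06 to 17.5 and 6.58 to 14.8 TPM (adjusted p 0.919). Ly6g was thus high in libraries where S100a8, S100a9, Csf3r and Cxcr2 were at or near 0. Which cells its RNA came from was not tested.

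Few genes passed the test at day 3, and most of those were lower. Of 12008 genes tested with limma on log2(TPM + 1), 45 (0.375%) had a Benjamini-Hochberg adjusted p under 0.05, of which 8 were higher (0.0666%) and 37 lower (0.308%). These shares are the ones to set beside the counts of calls in each gene list below. The falls ran from 1.55-fold (Ldha) to 6.78-fold (Kyat1) on that scale, and the smallest rise was 1.59-fold (Adh1). In each of the 45, no day 3 sample overlapped the range of the day 0 samples. Over all genes tested, the ranges did not overlap in 9.21% with day 3 higher and in 3.05% with day 3 lower. Genes just inside the threshold were Cldn2, Ces1f and Gm21885 (adjusted p 0.0473 each), and just outside were Scin and Itgb6 (0.0510 each) and Otc (0.0535).

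**Figure D1:**
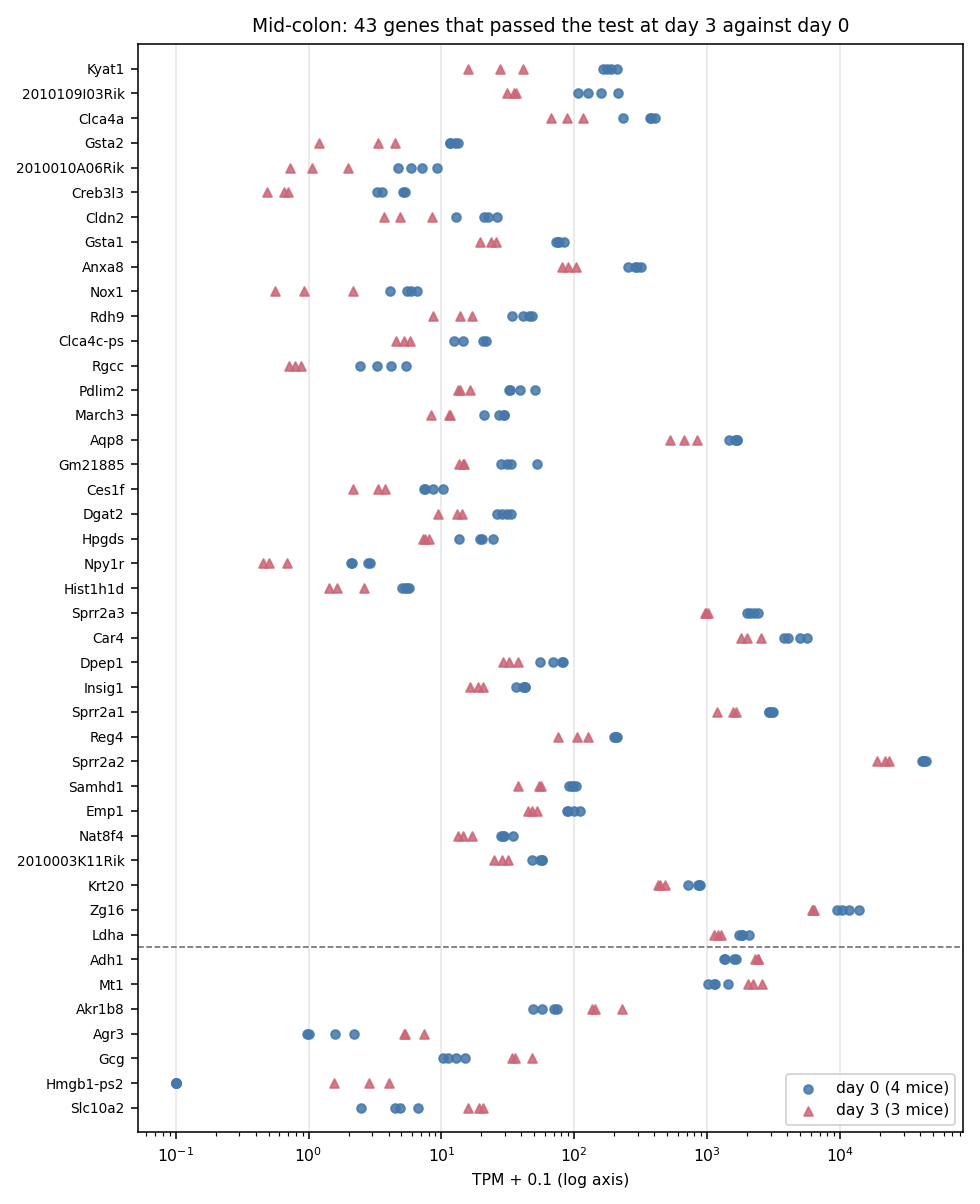
Level of 43 of the 45 genes that passed the test, in TPM + 0.1 on a log axis, with 1 point per mouse (circles for the 4 mice of day 0, triangles for the 3 mice of day 3). The dashed line parts the 36 genes plotted that were lower at day 3 from the 7 higher, and the 2 groups of points do not overlap in any row.

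The number of calls depended on scaling and on single mice. The median log2 change of all tested genes was 0.14, and 73.2% of genes had a change above 0. Leaving out 1 mouse moved that median from 0.05 without mouse 4 to 0.24 without mouse 5. TMM factors brought the median to 0.01, left 51.3% of changes above 0 and 48.7% below, and called 16 higher (0.133%) and 120 lower genes (0.999%), 39 of the 45 among them. With the rectum of the same mice in the fit, which shares its estimate of the spread, 149 genes were higher (1.24%) and 171 lower (1.42%). That fit took the rectum and mid-colon of a mouse as independent samples, so its spread rests on more samples than mice. In the fit of the mid-colon alone, there were 11, 18, 19 or 71 calls without mouse 1, 2, 3 or 4. Without mouse 5, 6 or 7 there were 18, 7 or 18. Kyat1, Gsta1, Anxa8, Sprr2a2, Sprr2a3 and 2010109I03Rik were called in all 7 of these fits, and the other 39 lost the call without at least 1 mouse. With no filter on low values, 4 of 20609 genes were called, and Gsta1, Anxa8 and Sprr2a3 were those of the 45 among them.

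**Figure D2:**
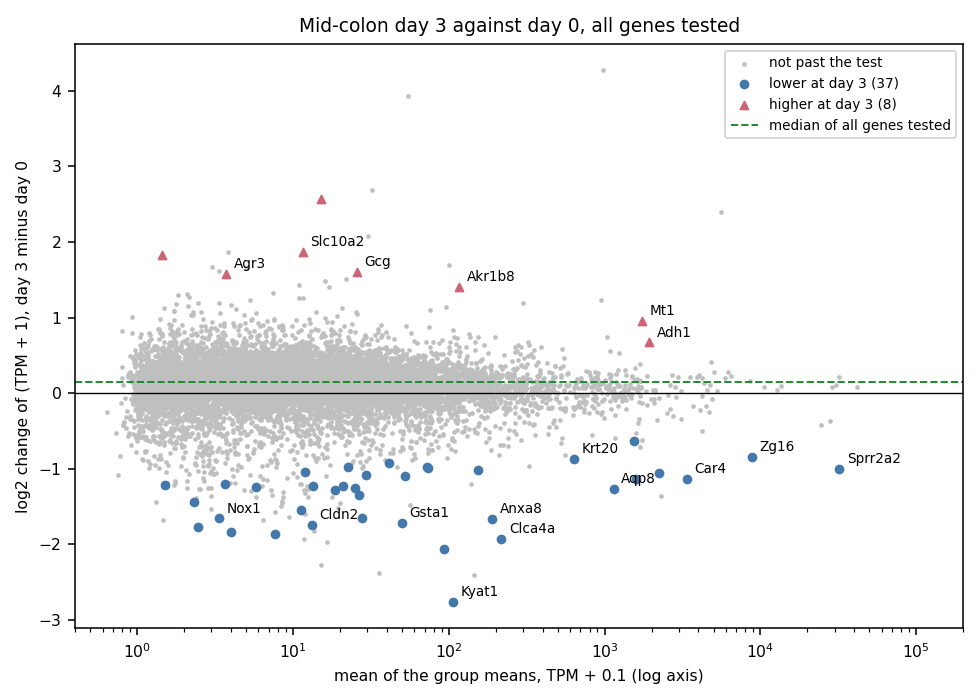
Log2 change of (TPM + 1), day 3 minus day 0, against the mean level (log axis) for the 12008 genes tested. The 37 lower and 8 higher genes past the test are marked, and a line marks the median of all genes, 0.14.

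The largest fall was that of Kyat1, which encodes a kynurenine aminotransferase that also acts on cysteine conjugates. Its level was 165, 175, 188 and 209 TPM in mice 1 to 4 and 15.7, 27.6 and 41.3 TPM in mice 5 to 7. Every treated mouse was far under every uninjured one. Mean levels were 184 ± 18.9 TPM (SD, n = 4) and 28.2 ± 12.8 TPM (SD, n = 3), and the log2 change came to -2.76 ± 0.27 (SE, adjusted p 0.00400). Of the 11 tested members of the list of tryptophan and kynurenine metabolism, Kyat1 was the one call, 9 had a change above 0 and the median was 0.25, against 0.14 over all genes. Without mouse 4 the list's median was 0.03 and that of all genes 0.05, so it was no longer the higher. Naprt and Nadsyn1, enzymes of NAD synthesis, changed by 0.17 ± 0.19 and 0.35 ± 0.21 (adjusted p 0.742 and 0.567). Kyat1 (ENSMUSG00000039648) lies at chr2:30185124-30205847 on the minus strand of GRCm38. The 250 bases before its RefSeq start are shown because it fell most. Capitals mark CCAAT, the box bound by NF-Y, which stands here on the other strand, and GCGTG, the core bound by the aryl hydrocarbon receptor, also on the other strand. On either strand, these letters occur in 37.4% and 32.4% of all 32851 promoters of the table, counted over 300 bases.
Kyat1, chr2:30205848-30206097, minus strand: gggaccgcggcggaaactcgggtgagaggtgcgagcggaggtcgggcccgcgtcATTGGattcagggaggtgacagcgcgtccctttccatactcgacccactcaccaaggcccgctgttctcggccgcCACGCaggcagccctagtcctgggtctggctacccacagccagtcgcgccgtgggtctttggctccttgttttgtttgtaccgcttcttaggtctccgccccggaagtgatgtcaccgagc

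Genes of mature surface colonocytes made up part of the falls. Of 30 members tested, 5 fell and none rose, where 0.308% of all genes fell and 0.0666% rose. The median log2 change was -0.31 against 0.14 over all genes, and it ranged from -0.38 without mouse 4 to -0.21 without mouse 5. Aqp8, a water channel of the surface epithelium, was at 1469, 1685, 1606 and 1668 TPM in the uninjured mice and at 527, 668 and 834 TPM in the treated ones. That is a log2 change of -1.27 ± 0.15 (SE, adjusted p 0.0110, and 0.0584 without mouse 6). Car4, a membrane carbonic anhydrase of the brush border, was at 3802, 4074, 4982 and 5674 TPM in mice 1 to 4 and at 1791, 2001 and 2549.9 TPM in mice 5 to 7 (log2 change -1.13 ± 0.17, adjusted p 0.0294). Both groups of both genes were well apart. Krt20, a keratin of differentiated colonocytes, fell by 0.87 ± 0.12 on the log2 scale (adjusted p 0.0227), from 710.0 to 879 TPM to 424 to 484 TPM. Emp1, a membrane protein of differentiated epithelium, fell by 0.98 ± 0.13 (adjusted p 0.0246) and Dpep1, a dipeptidase of the brush border, by 1.09 ± 0.18 (adjusted p 0.0400). Other genes of this cell type did not pass. Car1, a cytosolic carbonic anhydrase, was at 3094 to 4726 TPM at day 0 and 3908 to 7022 TPM at day 3 (log2 change 0.42 ± 0.21, adjusted p 0.504). The chloride exchanger Slc26a3 changed by -0.03 ± 0.16 (adjusted p 0.951) and the keratin Krt8 by 0.04 ± 0.12 (adjusted p 0.913). The list had 0 calls without mouse 6, 1 without mouse 1, 3 or 5, 2 without mouse 2 or 7, 6 without mouse 4, 7 with TMM factors and 0 with all 19 mid-colonic samples in the fit. Calls over all genes moved too. They were 7 without mouse 6, 11, 19 and 18 without mouse 1, 3 and 5, and 18 each without mouse 2 or 7. There were 71 without mouse 4, 136 with TMM factors and 37 with all 19 samples. With the rectum in the fit, 8 members of the list were lower and 1 higher, against 1.42% and 1.24% of all genes.

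Among 34 genes of salt and water transport, Aqp8 and Clca4a were called, both lower, where 0.308% of all genes were called lower. The median was -0.15, against 0.14 over all genes, and ranged from -0.25 without mouse 4 to -0.02 without mouse 5. Neither gene was called without mouse 6, in a fit that called 7 of 12270 genes. Clca4a, a regulator of calcium-activated chloride channels, was at 233, 369, 403 and 375 TPM in mice 1 to 4 and at 66.4, 87.9 and 116 TPM in mice 5 to 7. The log2 change of -1.93 ± 0.23 (SE) had an adjusted p of 0.0110, and of 0.0584 without mouse 6. Its transcript was 95.3% identical to that of Clca4b, so reads of the copies may be split. Clca4b itself varied between 1.23 and 57.8 TPM within day 0 (adjusted p 0.530). Atp1b1, a subunit of the sodium pump, did not pass, with a change of 0.04 ± 0.22 (adjusted p 0.955).

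Cldn2, which forms paracellular pores for cations and water, was the one call among 24 tight junction genes. It stood at 20.9, 22.2, 26.3 and 12.8 TPM in mice 1 to 4 and at 3.58, 8.31 and 4.76 TPM in mice 5 to 7. The lowest uninjured value, in mouse 4, was still above the highest treated one. The log2 change was -1.74 ± 0.29 (adjusted p 0.0473), and of the 7 fits that left out a mouse it passed in the one without mouse 4 (adjusted p 0.0265). Cldn8, a claudin that seals against sodium, was at 38.7 to 59.0 TPM and then at 72.2 to 135 TPM (log2 change 1.10 ± 0.22, adjusted p 0.0971). These ranges did not overlap, as in 9.21% of all genes with day 3 higher. The adhesion protein Epcam and the claudins Cldn7 and Cldn3 changed by -0.05, -0.19 and 0.10 on the log2 scale (adjusted p 0.893, 0.698 and 0.861).

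The small proline-rich proteins Sprr2a1, Sprr2a2 and Sprr2a3 belong to a family of crosslinked envelope proteins of squamous cells that the gut epithelium also makes, and all 3 fell. Together they took 4.63% to 4.92% of the whole TPM total at day 0 and 2.13% to 2.59% at day 3. Sprr2a2 alone was at 42633, 41209, 42359 and 44035 TPM in mice 1 to 4 and at 19061, 21681 and 23277 TPM in mice 5 to 7. It was 2.0-fold lower (SE 0.09 on the log2 scale), with an adjusted p of 0.00384, and 0.0610 with TMM factors. Sprr2a1 and Sprr2a3 fell by 1.05 ± 0.12 and 1.14 ± 0.10 (adjusted p 0.0110 and 0.00348). Their transcripts were 94.9% to 98.3% identical, and the gene models of Sprr2a1 and Sprr2a2 overlap on chromosome 3, so the split within the family is uncertain. Anxa8, an annexin of injured and squamous epithelium, fell as well. It stood at 317, 285, 253 and 297 TPM in the uninjured mice and at 80.7, 89.1 and 102 TPM in the treated ones (log2 change -1.66 ± 0.13, adjusted p 0.00232). Sprr2a1 and Anxa8 were the 2 calls, both lower, among the 20 tested genes of injury-associated fetal-like epithelium, against 0.308% of all genes. That list is named for genes known to rise after injury. Its median was 0.11, against 0.14 over all genes, and ranged from 0.04 without mouse 1 to 0.13 without mouse 3. Ly6a, a widely used member, was at 575 to 936 TPM and then at 547 to 816 TPM (adjusted p 0.683).

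Single enzymes of detoxification and lipid handling fell. Gsta1, a glutathione transferase, was at 76.2, 75.1, 73.1 and 83.4 TPM in mice 1 to 4 and at 25.5, 23.5 and 19.4 TPM in mice 5 to 7 (log2 change -1.72 ± 0.14, adjusted p 0.00232). Gsta2, with a transcript 96.7% identical, changed by -1.86 ± 0.29 (adjusted p 0.0374), and reads may be split between them. They were the 2 calls among 51 tested entries of glutathione metabolism and the antioxidant regulator Nrf2, against 0.308% of all genes called lower. The median of that list was 0.04, against 0.14 over all genes, and ranged from -0.02 without mouse 4 to 0.10 without mouse 5. Prdx6, an abundant peroxiredoxin, held between 11698 and 14406 TPM in all 7 mice (log2 change 0.04 ± 0.11, adjusted p 0.898). Ces1f, a carboxylesterase, fell by 1.24 ± 0.21 (adjusted p 0.0473) and was the one call among 16 genes of the xenobiotic receptors. Creb3l3, a membrane-bound transcription factor of lipid metabolism, was at 5.25, 5.01, 3.44 and 3.17 TPM and then at 0.386, 0.549 and 0.602 TPM (log2 change -1.77 ± 0.20, adjusted p 0.0110). Dgat2, which makes triglyceride, fell by 1.23 ± 0.18 (adjusted p 0.0294). Creb3l3 and Dgat2 were the 2 calls among 27 genes of lipid handling, against 0.308% of all genes called lower. The median of that list was 0.01, against 0.14 over all genes, and ranged from -0.18 without mouse 4 to 0.13 without mouse 3. Rdh9, a retinol dehydrogenase, fell by 1.65 ± 0.23 (adjusted p 0.0246). In cholesterol synthesis, 23 of 30 genes had a change below 0, against 26.8% of all genes, with a median of -0.27, ranging from -0.46 without mouse 4 to -0.19 without mouse 2. Of these, Insig1, which holds back the sterol-sensing machinery, was the one call, with 36.5 to 42.6 TPM in uninjured and 16.4 to 20.5 TPM in treated mice (adjusted p 0.0227).

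Further falls came from other roles. Nox1, the NADPH oxidase of the colonic epithelium, was at 4.00, 5.77, 6.48 and 5.39 TPM and then at 0.819, 2.07 and 0.457 TPM (log2 change -1.66 ± 0.27, adjusted p 0.0400). Zg16, a lectin of goblet cell mucus, was at 9427 to 13927 TPM in uninjured and 6130.1 to 6304 TPM in treated mice (log2 change -0.84 ± 0.13, adjusted p 0.0374, and 0.128 with TMM factors). It was the one call among 27 goblet cell genes. Muc2, the main gel-forming mucin, was at 473 to 872 TPM and then at 759 to 951 TPM (log2 change 0.27 ± 0.20, adjusted p 0.630), and Clca1 and the trefoil peptide Tff3 changed by -0.03 ± 0.12 and -0.08 ± 0.16 (adjusted p 0.911 and 0.866). Hpgds, a prostaglandin D synthase, fell by 1.22 ± 0.20 (adjusted p 0.0453) as the one call among 11 tuft cell genes. Rgcc, a regulator of the cell cycle, Pdlim2, an adaptor at the cytoskeleton, and March3, a membrane-bound ubiquitin ligase, fell by 1.44 ± 0.23, 1.35 ± 0.19 and 1.29 ± 0.19 (adjusted p 0.0400, 0.0265 and 0.0290). Further calls are given by symbol alone. They were Ldha, Reg4, Samhd1, Npy1r, Nat8f4, Gm21885, 2010109I03Rik, 2010010A06Rik, 2010003K11Rik and Clca4c-ps, all lower. Hmgb1-ps2 was higher, listed at 0 in all 4 uninjured mice and at 1.44, 3.93 and 2.75 TPM in the treated ones. It is a processed pseudogene, so its reads may belong to Hmgb1.

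Rises were fewer and spread over several functions. Slc10a2, the sodium-dependent bile acid transporter, was at 2.38, 4.40, 6.58 and 4.74 TPM and then at 19.0, 15.7 and 20.5 TPM (log2 change 1.86 ± 0.26, adjusted p 0.0283). Akr1b8, an aldo-keto reductase, rose by 1.40 ± 0.22 on the log2 scale, from 49.0 to 73.3 to 135 to 230.0 TPM (adjusted p 0.0352). Agr3, a disulfide isomerase, rose by 1.57 ± 0.23, from 0.874 to 2.10 to 5.13 to 7.34 TPM (adjusted p 0.0290). The metallothionein Mt1 and the alcohol dehydrogenase Adh1 were abundant on both days. Mt1 was at 1123, 1435, 1013 and 1152 TPM and then at 2217, 2043 and 2599.6 TPM (log2 change 0.96 ± 0.14, adjusted p 0.0290), and Adh1 at 1337 to 1646 TPM and then at 2279 to 2389 TPM (0.67 ± 0.11, adjusted p 0.0400). With TMM factors neither passed (adjusted p 0.112 and 0.242), and Adh1 passed in none of the fits that left out a mouse. Mt2, the second metallothionein, changed by 1.23 ± 0.24 (adjusted p 0.0779, and 0.0162 without mouse 2). Acaa2, a thiolase of fatty acid oxidation, was at 60.2 to 93.4 TPM and then at 126 to 151 TPM (log2 change 0.84 ± 0.16, adjusted p 0.0779).

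The proglucagon gene Gcg, expressed by enteroendocrine L cells, rose as well. It stood at 11.0, 14.9, 12.7 and 10.2 TPM in mice 1 to 4 and at 35.6, 33.7 and 47.8 TPM in mice 5 to 7. Every treated mouse had more than 2 times the highest uninjured level. The log2 change was 1.60 ± 0.19 (adjusted p 0.0110, and up to 0.0503 with 1 mouse left out). Of 13 enteroendocrine genes tested, 12 had a change above 0, against 73.2% of all genes, and Gcg was the one call. The median was 0.42, ranging from 0.35 without mouse 6 to 0.64 without mouse 5, and 12 were above 0 in each of those fits. Summed over the list, the level was 377 to 497 TPM in the uninjured mice and 658 to 671 TPM in the treated ones. Tac1, which encodes substance P and is expressed by serotonin-producing cells and by neurons, was at 8.50, 9.84, 5.90 and 11.9 TPM in uninjured mice. In mice 5, 6 and 7 it was at 97.3, 40.5 and 16.1 TPM (log2 change 2.07 ± 0.49, adjusted p 0.137, and 0.0427 without mouse 7). Insl5, a hormone of colonic L cells, was at 91.2 to 146 TPM and then at 171 to 196 TPM (adjusted p 0.164), and Pyy, from the same cells, at 187 to 281 TPM and then at 278 to 307 TPM (adjusted p 0.352).

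Genes of cell division had lower levels without passing the test. All 34 tested members of the list of G2 and mitosis had a change below 0, a direction that 26.8% of all genes had, and the median was -0.94, ranging from -1.20 without mouse 6 to -0.77 without mouse 7. At least 33 were below 0 with any 1 mouse left out. None was called, and in 3 of the 34 the groups did not overlap with day 3 lower, against 3.05% of all genes. With TMM factors, which put the median at -1.04, 4 were called lower (Aurkb, Hmmr, Cdk1 and Cenpa), against 0.999% of all genes, and 9 with the rectum in the fit, against 1.42%. Cdk1, the kinase that drives entry into mitosis, was at 15.3, 13.9, 18.8 and 10.4 TPM in mice 1 to 4 and at 5.89, 9.58 and 3.93 TPM in mice 5 to 7. Its log2 change was -1.11 ± 0.28 (adjusted p 0.166, and 0.0456 with TMM factors). Hmmr, a spindle protein, was at 5.70, 6.73, 7.00 and 4.53 TPM and then at 2.13, 3.90 and 1.60 TPM (adjusted p 0.156, and 0.0367 with TMM factors). Mki67, the usual marker of cycling cells, was at 8.95, 10.1, 11.9 and 4.68 TPM and then at 2.20, 6.50 and 1.73 TPM. Here mouse 6, treated, stood above mouse 4, uninjured, and the log2 change was -1.23 ± 0.38 (adjusted p 0.262). For DNA replication, 23 of 28 genes had a change below 0, the median was -0.24, ranging from -0.34 without mouse 4 to -0.14 without mouse 3, and none was called. In 8 of the 28 the groups did not overlap with day 3 lower, against 3.05% of all genes. With TMM factors 3 were called lower, against 0.999% of all genes, and with the rectum in the fit 4, against 1.42%. Median centring called 4 lower, where 116 of all 12008 genes were called lower. Pcna, the replication clamp, was at 55.1 to 96.5 TPM and then at 61.3 to 74.8 TPM (adjusted p 0.766). Histone genes had 26 of 32 changes below 0, a median of -0.43, ranging from -0.67 without mouse 7 to -0.29 without mouse 5, and 1 call, the linker histone Hist1h1d (log2 change -1.20 ± 0.19, adjusted p 0.0400). The stem cell marker Lgr5 was too low to enter the test, at 0.200 to 0.469 TPM in uninjured and 0.0458 to 0.108 TPM in treated mice. Smoc2, another stem cell gene, changed by -1.01 ± 0.24 (adjusted p 0.145, and 0.0425 without mouse 4). Of the 15 tested genes of crypt stem cells and Wnt targets, 8 had a change below 0 and 7 above, and none was called. The median of that list was -0.01, against 0.14 over all genes. It was -0.27 without mouse 4 and 0.14 without mouse 5.

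Promoters of 3 mitotic genes are shown because every tested gene of the list had the same sign of change, although none passed the test. Many such genes carry CCAAT boxes and a cell cycle homology region, bound by the DREAM and MuvB complexes, which was searched as TTTGAA and, second, as the letters TTCGAA. Of the 30 promoters in the RefSeq table (GRCm38.p6) for 28 of the tested members, 26 (86.7%) held CCAAT and 23 (76.7%) a homology region, on either strand within 300 bases. The shares over all 32851 promoters were 37.4% and 19.2%. Both occurred together in 22 of the 30 (73.3%) and in 7.52% of all. The median GC content was 59.8% in the 30 and 52.7% overall. Of the 30 promoters found for 26 of the genes called lower, 7 held CCAAT (23.3%), 5 a homology region (16.7%) and 0 both. In the 250 bases before each start, capitals mark these motifs on either strand and, in Cdk1, the E2F site TTTCGCGC, held by 0.323% of all promoters. A match is a description of the letters, not of binding.
Cdk1, chr10:69352913-69353162, minus strand: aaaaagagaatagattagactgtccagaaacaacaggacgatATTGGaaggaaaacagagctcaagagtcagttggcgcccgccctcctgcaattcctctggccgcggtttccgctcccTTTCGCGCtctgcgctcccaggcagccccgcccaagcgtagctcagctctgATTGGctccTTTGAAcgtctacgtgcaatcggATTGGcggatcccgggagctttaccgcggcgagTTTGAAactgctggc
Hmmr, chr11:40733438-40733687, minus strand: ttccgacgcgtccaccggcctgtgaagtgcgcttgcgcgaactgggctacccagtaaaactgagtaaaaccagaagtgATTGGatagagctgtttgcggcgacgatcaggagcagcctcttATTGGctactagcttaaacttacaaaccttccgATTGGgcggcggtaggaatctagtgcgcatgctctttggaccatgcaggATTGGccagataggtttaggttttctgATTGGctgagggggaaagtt
Mki67, chr7:135716380-135716629, minus strand: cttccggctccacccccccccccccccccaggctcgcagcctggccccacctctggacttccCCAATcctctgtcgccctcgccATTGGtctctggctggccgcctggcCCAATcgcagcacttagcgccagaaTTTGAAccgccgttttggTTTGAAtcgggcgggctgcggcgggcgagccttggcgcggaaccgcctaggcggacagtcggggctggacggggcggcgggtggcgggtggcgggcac

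**Figure D3:**
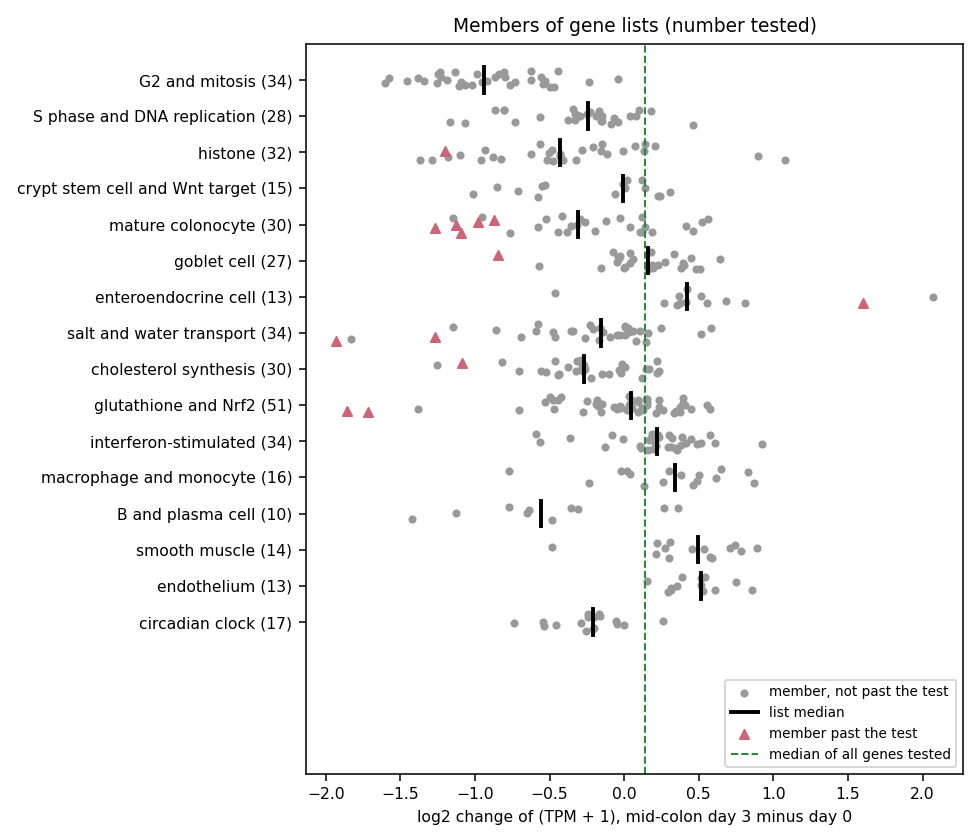
Log2 change of (TPM + 1), day 3 minus day 0, for the tested members of 16 gene lists, with 1 point per gene, list medians and the median of all genes, 0.14, as a line. All 34 points of the G2 and mitosis list lie below 0.

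The lists of macrophages, smooth muscle, endothelium and interferon-stimulated genes had no calls and medians above that of all genes. Of 16 macrophage genes tested, 13 had a change above 0 (median 0.34), as had 13 of 14 in smooth muscle (median 0.50), 13 of 13 in endothelium (median 0.51) and 28 of 34 interferon-stimulated genes (median 0.22), against 73.2% of all genes. With 1 mouse left out, the medians ranged from 0.18 without mouse 7 to 0.54 without mouse 5 for macrophages, from 0.23 without mouse 6 to 0.84 without mouse 5 for smooth muscle, and from 0.45 without mouse 7 to 0.61 without mouse 5 for endothelium. Without mouse 7, 14 of the 34 interferon-stimulated genes were above 0 and the median was -0.10, against 0.09 for all genes. Without mouse 5 that list's median was 0.53. The summed level of the smooth muscle list was 1146 to 1643 TPM in uninjured and 1228 to 2426 TPM in treated mice, and that of the endothelial list 43.1 to 56.1 TPM and then 56.8 to 109 TPM. Their part in the results of other genes was not tested. Cxcl10, a chemokine induced by interferon, was at 0.433 to 1.57 TPM and then at 3.48 to 8.42 TPM (log2 change 1.62 ± 0.30, adjusted p 0.0704). Ccl8, a chemokine for monocytes, was at 5.16 to 12.3 TPM and then at 18.4 to 36.4 TPM (adjusted p 0.112). Both had ranges that did not overlap, as had 9.21% of all genes with day 3 higher. Of 19 chemokine genes tested, 10 had a change above 0 and 9 below, with a median of 0.18 and no call. In 5 of the 19 the ranges did not overlap with day 3 higher, and in 1 with day 3 lower. Grem1, a BMP antagonist of stromal cells under the crypts, was at 4.38 to 5.96 TPM and then at 10.1 to 21.9 TPM. Its log2 change was 1.43 ± 0.25 (adjusted p 0.0535, 0.0163 with TMM factors and 0.0218 without mouse 5). Of 26 tested genes of fibroblasts and matrix, 17 had a change above 0 and 9 below, with no call. The median of that list was 0.03, against 0.14 over all genes. The collagens Col1a1 and Col3a1 changed by -0.35 ± 0.22 and -0.22 ± 0.22 (adjusted p 0.596 and 0.720). Genes of acute epithelial defence had 1 call in 22, Nox1, and a median of 0.00, ranging from -0.21 without mouse 6 to 0.12 without mouse 5. Saa1, an acute-phase protein that colonocytes make, was at 2298 to 5378 TPM and then at 1115 to 1361 TPM (adjusted p 0.0657, and 0.0234 without mouse 4). Every treated mouse was under every uninjured one, as in 3.05% of all genes. For B and plasma cells, 8 of 10 genes had a change below 0, against 26.8% of all genes. The median was -0.56, ranging from -0.93 without mouse 6 to -0.25 without mouse 5, where 6 of the 10 were below 0. Igkc, an antibody light chain, spread from 173 to 981 TPM over the 7 mice. Of 17 clock genes, 16 had a change below 0, against 26.8% of all genes (median -0.21, no call). Without mouse 5, 9 of the 17 were below 0, the median was -0.07 and that of all genes 0.24. Dbp, an output gene of the clock, was at 81.3 to 100.5 TPM and then at 40.6 to 101 TPM.

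The rectum of the same 7 mice was set beside the mid-colon to ask whether the response at day 3 differed by section. The rectum had 818 calls (6.62%), 185 higher (1.5%) and 633 lower (5.13%) of 12348. Of the 37 mid-colonic falls, 32 were also called lower there, and of the 8 rises, 6 were also called higher. Since both sections came from the same mice, this is no independent support. In a direct test of the difference, none of 12775 genes passed with limma (971, or 7.6%, had an unadjusted p under 0.05). With the mouse as a block, 3 genes passed, all with a negative difference (rectum minus mid-colon): Cdk1, Gm13226 and Gm21885. Cdk1 fell more in rectum (log2 change -2.43, against -1.11 in mid-colon), as did Gm21885 (-3.55 against -1.25). Gm13226 changed by -1.23 in rectum and by 0.64 in mid-colon. In the test without the block, 10 genes passed without mouse 4 and 5 without mouse 7. Kyat1 changed by -2.95 in the rectum, a difference of -0.19 ± 0.35 (SE, adjusted p 0.858), and Gcg by 1.64, a difference of 0.04 ± 0.27 (adjusted p 0.966). Emp1 was at 96.6 ± 9.75 and then 48.3 ± 3.94 TPM in mid-colon and at 130.1 ± 7.91 and then 118 ± 8.54 TPM in rectum (SD, 4 and 3 mice). The difference of 0.85 ± 0.15 had an unadjusted p of 4.24e-05 in limma and an adjusted p of 0.151. Cldn2 changed by -3.08 in the rectum, a difference of -1.34 ± 0.36 (adjusted p 0.466). Cdk1 had mean levels of 24.1 and 3.80 TPM in the rectum, and its difference was -1.32 (adjusted p 0.0487 with the block and 0.550 without).

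**Figure D4:**
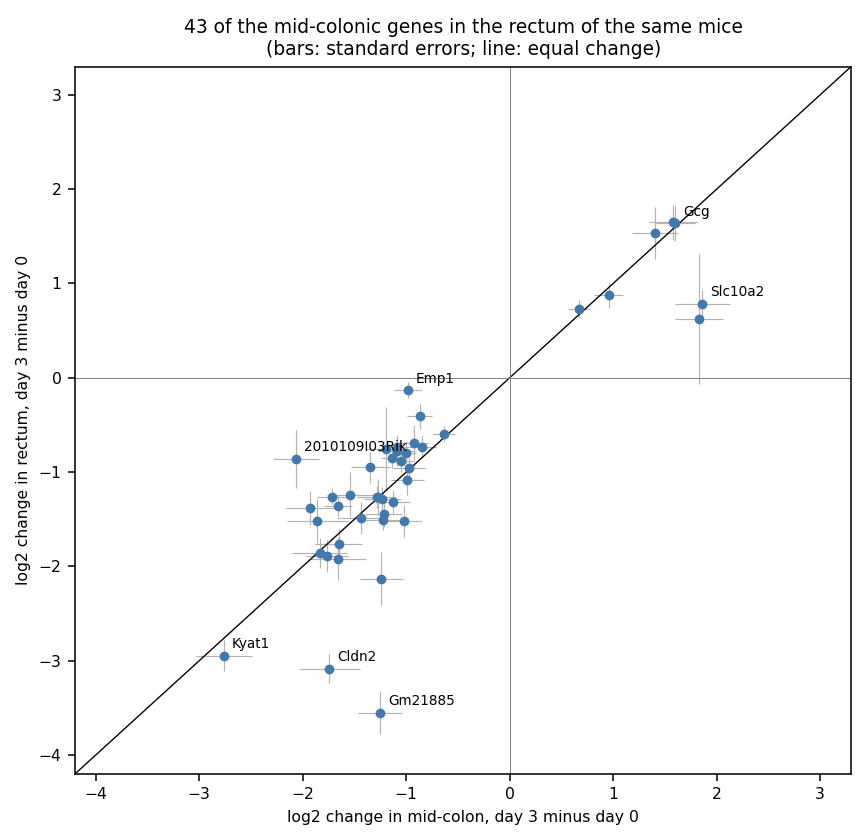
Log2 change of (TPM + 1) from day 0 to day 3 in rectum against mid-colon for 43 of the 45 mid-colonic genes, with standard errors as bars and equal change as the line. All 43 points have the same sign in both sections.

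Later samples show where the day 3 values stood in the course. At day 6, the end of the DSS course, 3777 of 11862 genes (31.8%) differed from day 3, 569 higher (4.8%) and 3208 lower (27%). With TMM factors 1210 were higher and 656 lower, so the balance of directions depended on scaling. Without mouse 5 there were 5917 calls, and without mouse 6 there were 496. The rises that met the naming rule were Clca4b, S100a8, a neutrophil calcium-binding protein, Saa3, an acute-phase protein, and Wfdc18, a secreted protein of the protease inhibitor family. S100a8 was listed at 0 in all 3 mice of day 3 and had a mean of 48.4 ± 44.8 TPM (SD, n = 3) at day 6. Among the falls were S100g, a calcium-binding protein of absorptive cells, Cyp2c68, a cytochrome P450, and Zfas1, a non-coding RNA. Zfas1 did not pass with TMM factors (adjusted p 0.0907).

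The genes that had fallen by day 3 took different courses afterwards. Mean levels on days 0, 3 and 6 were 42559, 21340.0 and 64393 TPM for Sprr2a2, 4633, 2114 and 5558 TPM for Car4, and 11311, 6233 and 15612 TPM for Zg16. These 3 had their highest mean of the 3 days on day 6. For Cldn2 the means were 20.6, 5.55 and 1.37 TPM, for Gsta1 76.9, 22.8 and 14.0 TPM, and for Ces1f 8.34, 2.98 and 0.665 TPM, each lowest on day 6. Kyat1, with an uninjured mean of 184 TPM, had means of 28.2, 47.7, 14.1, 92.7 and 47.0 TPM on days 3, 6, 9, 14 and 20. Gcg, with an uninjured mean of 12.2 TPM, had means of 39.0, 60.6, 119, 41.1 and 25.7 TPM on the same days. Mt1 had a mean of 2286 TPM on day 3 and 564 TPM on day 6. These courses share the day 0 and day 3 samples with the test above and are given as levels, with no test.

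**Figure D5:**
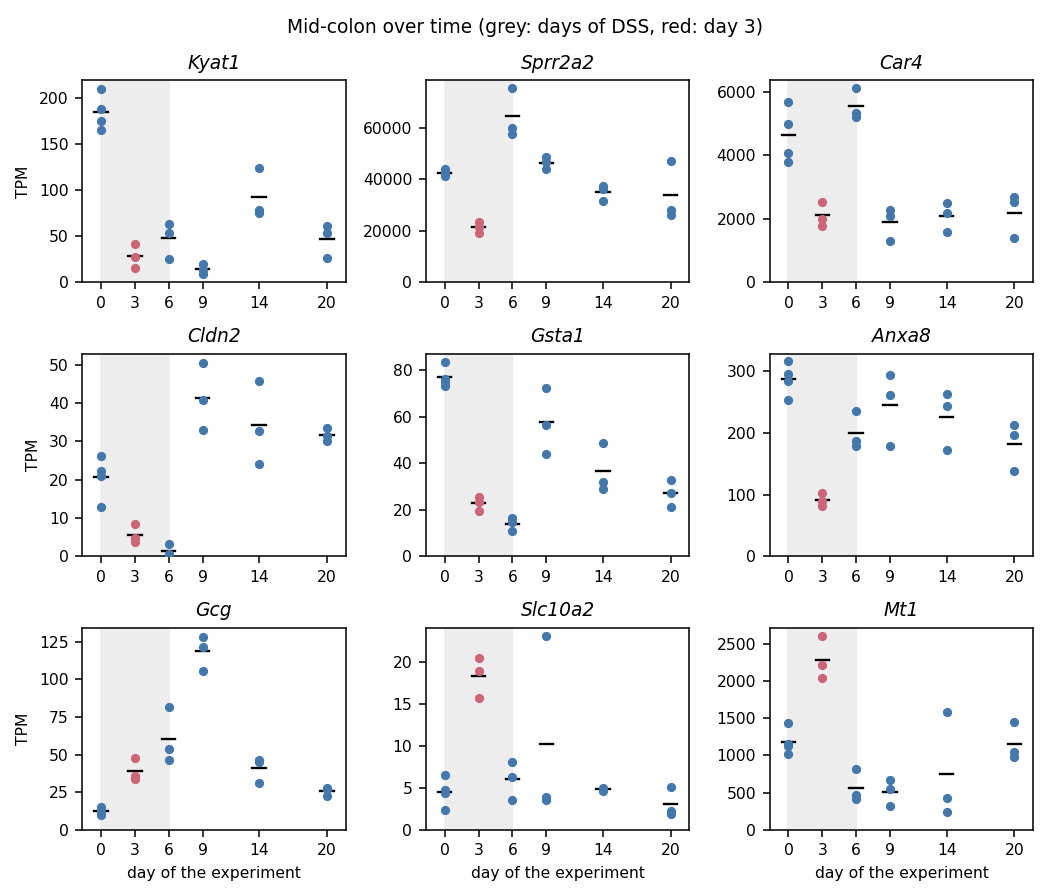
TPM in mid-colon of 9 genes by day of the experiment, with 1 point per mouse (4 at day 0 and 3 on each later day) and the days of DSS in grey. Sprr2a2 and Car4 are lower at day 3 than at days 0 and 6, and Mt1 is higher at day 3 than at days 0 and 6.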

How the data were processed

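RNA of 66 mouse gut sections was sequenced as single-end 75 bp reads from stranded mRNA libraries, per the labels' protocols. The deposited table gives TPM per Ensembl transcript. The submitters' processing notes name CASAVA, kallisto and mm10 without versions or roles, and other upstream steps are not given in the sources used here.

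Of 126860 rows, 37344 had no values and 1318 repeated a transcript, and these were dropped. TPM was summed per gene (30452 genes), and 1284 transcripts without a gene identifier (0.637% to 0.888% of the total in the 7 samples) were left out. Without counts, no interval or floor is given. A gene was tested if at least 3 samples had 1 TPM or more. Fewer samples sufficed where a mouse of a group of 3 was left out. Without mouse 5, 6 or 7, 12386, 12270 or 12238 genes were thus tested, against 12008 in the main fit. Values were fitted as log2(TPM + 1) in limma 3.58.1 (R 4.3.3) with a trended prior, and p was adjusted by Benjamini-Hochberg over all genes tested (threshold 0.05). Changes on that scale understate those of low genes. The main fit held the 7 mid-colonic samples. The rectal fit was added after the data were seen. Each mouse is 1 replicate, and no source states cages or library batches, so p-values measure the spread between these samples.

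The sections of a mouse share its identifier in the labels, so the contrast of rectum and mid-colon was also fitted within mice. Deviations from the group means correlated between the sections of a mouse with r from -0.071 to 0.364 over 7 mice. Alternatives were TMM factors, median centring, pseudocounts of 0.1 and 5, no filter or one of 5 TPM, no trend, a robust prior, more samples in the fit, and leaving out each mouse.

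The comparison, lists, rules and alternatives were chosen with earlier results of these data known. Genes were named if called, with a regular symbol and a mean of at least 2 TPM, up to 14 per direction by size of change (8 TPM and 4 for the other comparisons). In each list, called members, the 4 with the highest mean and the 2 with the smallest p could be named, besides fixed markers and study genes. A few genes that met these rules are not reported here. Cdk1 and Cenpa were named after their values were seen. Gene positions and transcripts come from GENCODE M21 (GRCm38), with identity from global alignment of the longest coding transcripts, and promoters from RefSeq (GRCm38.p6). The test of mid-colon day 3 against day 0 was tried on simulated data. These gave all genes the same spread, unlike the real libraries, and no result rests on that trial. Python 3.11.15, pandas 2.3.3 and matplotlib 3.10.9 were used.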

Additional observations from a re-analysis of the deposited data

Results flagged for a closer look

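In 23 of 270 quantities examined, 1 of the 4 uninjured mid-colonic libraries stood far from the other 3, with a gap to its nearest neighbour beyond Dixon's critical value for 4 samples. Chance flags about 1 in 20 such groups, and the quantities share the same 4 libraries. Mouse 4 was the one apart in 13 of the 23. Its 10 most abundant genes took 31.1% of the TPM total, against 25.5% in the nearest library. For mouse 4 the genes set apart, in TPM, were Krt20 at 710.0 (nearest 857), Lrig1 at 4.90 (nearest 10.9), Dcn at 188 (nearest 133), Sfn at 66.9 (nearest 99.9), H2-Aa at 63.8 (nearest 52.1), Wars at 15.1 (nearest 30.2), Hspa5 at 196 (nearest 331), Cldn3 at 282 (nearest 433), Cdh17 at 334 (nearest 414), Nr1d1 at 56.1 (nearest 105), Hsd11b2 at 51.8 (nearest 112) and Gsdmc4 at 633 (nearest 962). For mouse 3 the genes set apart, in TPM, were Errfi1 at 48.3 (nearest 33.1), Prdx6 at 14406 (nearest 12149.6), Nr4a1 at 1.57 (nearest 0.746), Rpl41 at 4009 (nearest 4914), Rpl7 at 2430.0 (nearest 2809), Cyp2c55 at 1363 (nearest 905) and Hist2h2aa1 at 119 (nearest 183). For mouse 2 the gene set apart, in TPM, was Tagln at 335 (nearest 409.9). For mouse 1 the genes set apart, in TPM, were Uchl1 at 3.81 (nearest 1.81) and Lpl at 5.93 (nearest 8.59). Of these genes, Krt20 passed the test at day 3, with an adjusted p of 0.0149 without mouse 4.

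With the mouse as a block, 3 genes had a day 3 response that differed between the sections, by a log2 value (rectum minus mid-colon) of -1.32 for Cdk1, -1.87 for Gm13226 and -2.30 for Gm21885. Gm13226 had a mean of 1.40 TPM in the uninjured rectum and was listed at 0 in all 3 treated ones, against 1.09 and 2.19 TPM in mid-colon. Gm21885 had means of 27.3 and 1.43 TPM in rectum and of 35.9 and 14.1 TPM in mid-colon. Without the block neither passed in limma (adjusted p 0.151 and 0.0881).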

How the results depend on the processing

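The 45 calls of mid-colon day 3 against day 0 kept their direction under each alternative in which they were tested. With the filter of 5 TPM, 41 of them were tested. The count of 45 was 136 with TMM factors, 131 with median centring, 27 with no trend in the prior, 4 with no filter on low values and 320 with the rectum of the same mice in the fit. Leaving out 1 mouse gave 7 to 71 calls. The contrast of rectal and mid-colonic responses had 0 calls, 2 with a pseudocount of 0.1, 3 with the replicate block, and 0 to 10 with 1 mouse left out. Mid-colon day 6 against day 3 had 3777 calls, 1866 with TMM factors, 1920 with median centring, 1379 with no filter, and 496 to 5917 with 1 mouse left out. The rectal comparison had 818 calls, and 417 to 1282 with 1 mouse left out. The cause was not tested. No paired analysis was possible for mid-colon day 3 against day 0 because the mice differ between days. Depth is unknown, so it sets no stated limit.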
